A study of Homo sapiens with 3 samples.

Results

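Expression of 38 lysosome and autophagy genes was followed in 2 prostate cancer cell lines, out of 33423 genes with a row in at least 1 of the 3 count files. The genes were chosen by name for their known roles. The LNCaP-ENZ168 group was LNCaP cells given enzalutamide (ENZ), an inhibitor of the androgen receptor, at 10 µM for 168 h. VCaP cells were given the same dose of 10 µM for 48 h (VCaP-ENZ48) or the vehicle alone, 0.1% DMSO, for 48 h (VCaP parental). Both lines were labelled sensitive to ENZ. All 3 libraries were made by Drop-seq, in which a cell and a barcoded bead share a droplet and each captured mRNA gets a unique molecular identifier (UMI). With only 1 library in a group, differences could not be checked against replicates or tested. All intervals are 95% intervals and cover counting error only. LNCaP and VCaP cells were also grown in different media, so cell line, medium and time in ENZ cannot be told apart in any comparison of LNCaP-ENZ168 with a VCaP library.

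The lysosome is an acidic compartment in which hydrolases break down proteins, sugars and lipids. A proton pump, the V-ATPase, acidifies it, and membrane proteins such as LAMP1 and LAMP2 line it. In macroautophagy, cytoplasm is enclosed in a double membrane that carries lipid-linked ATG8 proteins and then fuses with the lysosome. The transcription factor TFEB and its relatives bind the CLEAR element, a site with the core CACGTG, in the promoters of many of these genes.

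Between 944 and 997 cells a library passed the filters, with 6313283 UMIs in LNCaP-ENZ168, 19515202 in VCaP parental and 14301287 in VCaP-ENZ48. Mitochondrial UMIs made up between 6.24% and 8.94% of a library. UMIs of the S and G2M genes made up 0.635% in LNCaP-ENZ168, 1.51% in VCaP parental and 0.286% in VCaP-ENZ48. The 1 barcode found in all 3 libraries was not among the kept cells. Of the kept barcodes, 739 ended in a base rather than N in LNCaP-ENZ168, against 138 in VCaP parental and 127 in VCaP-ENZ48. ERG, which a fusion in VCaP places under the TMPRSS2 promoter, was at 105 and 57.1 CPM (UMIs scaled to a library total of 1000000) in VCaP parental and VCaP-ENZ48. LNCaP-ENZ168 had 0 ERG UMIs, which allows up to 0.475 CPM. The epithelial genes KRT8, KRT18, EPCAM and HOXB13 were all above 98 CPM in every library, and PTPRC, PECAM1, COL1A1 and DCN, which mark blood, vessel and stromal cells, were at 1.58 CPM or less. The other luminal markers looked at were uneven. KLK2 was at 1554 CPM in VCaP parental, 3053 CPM in VCaP-ENZ48 and 27.1 CPM in LNCaP-ENZ168. In the same order KLK3 was at 7.64, 10.9 and 91.9 CPM, and TMPRSS2 at 26.8, 16.8 and 97.6 CPM.

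Promoters are described first. Promoter sequence was not used to choose the genes. The CLEAR element is known from promoters of many of them, however, so the motif counts are not independent of that choice. RefSeq promoters of GRCh38.p14, each 300 bases around a gene start, were matched for 30 of the 38 genes. LAMP2, CTSB, HEXA, PSAP, ATP6V0E1, ATP6V1A, ATP6V1B2 and ATP6V1H were not matched. CACGTG, which reads the same on both strands, was present in 7 of the 30 promoters (23.3%), against 7.20% of all 34796 promoters. The longer TCACGTG, searched on both strands, was in 6 of 30 (20%) and in 3.67% of all. TCACGTGA, again the same on both strands, was in 4 of 30 (13.3%) and in 0.983% of all. The longer motifs contain the shorter, so the counts are nested. The 30 genes had 1 promoter each, while all promoters were counted as distinct sequences without a limit of 1 per gene. Among other genes of the pathway, listed further below and also counted with 1 promoter each, CACGTG was in 23 of 101 (22.8%). The 6 windows below are shown 5′ to 3′ on the strand of the gene, with 1 CACGTG each in capitals, for the genes CTSD and GAA, whose level was higher in VCaP-ENZ48, for CTSA and ATP6V0B, which carry the core but were not called, and for LAMP1, which had 6 cores. Further cores within a window stand in lower case.
CTSD, chr11:1763944-1763999, minus strand: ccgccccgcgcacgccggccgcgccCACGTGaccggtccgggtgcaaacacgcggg
GAA, chr17:80101480-80101535, plus strand: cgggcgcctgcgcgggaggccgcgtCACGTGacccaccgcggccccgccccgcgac
GAA, chr17:80101525-80101580, plus strand: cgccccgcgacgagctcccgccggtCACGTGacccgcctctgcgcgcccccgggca
CTSA, chr20:45891268-45891323, plus strand: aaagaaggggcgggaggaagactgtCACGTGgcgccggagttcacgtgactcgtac
ATP6V0B, chr1:43974878-43974933, plus strand: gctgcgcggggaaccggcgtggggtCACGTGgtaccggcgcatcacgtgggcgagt
LAMP1, chr13:113297055-113297110, plus strand: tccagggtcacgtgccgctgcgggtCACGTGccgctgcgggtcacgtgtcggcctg

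Relative to the RefSeq start of each gene, the core began 47 bases before it in CTSD, and 76 and 31 bases before it in GAA. Gencode, the source of the gene bounds given with the levels, places the starts of both genes elsewhere. The remaining promoters with CACGTG were those of CD63, with 1 core, and ATG3, with 2. A match says only that these letters are in the window.

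Taken over all 38 genes, the summed level was 2888 CPM (2864 to 2912) in VCaP parental, 3289 CPM (3259 to 3318) in VCaP-ENZ48 and 5565 CPM (5507 to 5624) in LNCaP-ENZ168. The sum was therefore lowest in VCaP parental and highest in LNCaP-ENZ168, and the intervals did not overlap. These sums are not centred on the other genes. Over all genes averaging 10 CPM or more, the median log2 ratio of LNCaP-ENZ168 was itself 0.65 over VCaP-ENZ48 and 0.57 over VCaP parental. A sum follows its most abundant genes. Levels are compared only between libraries for the same gene, since UMIs count transcripts near their 3′ end and were not set per length. A count of 0 allows up to 0.154 CPM in VCaP parental and 0.210 CPM in VCaP-ENZ48.

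**Figure D1:**
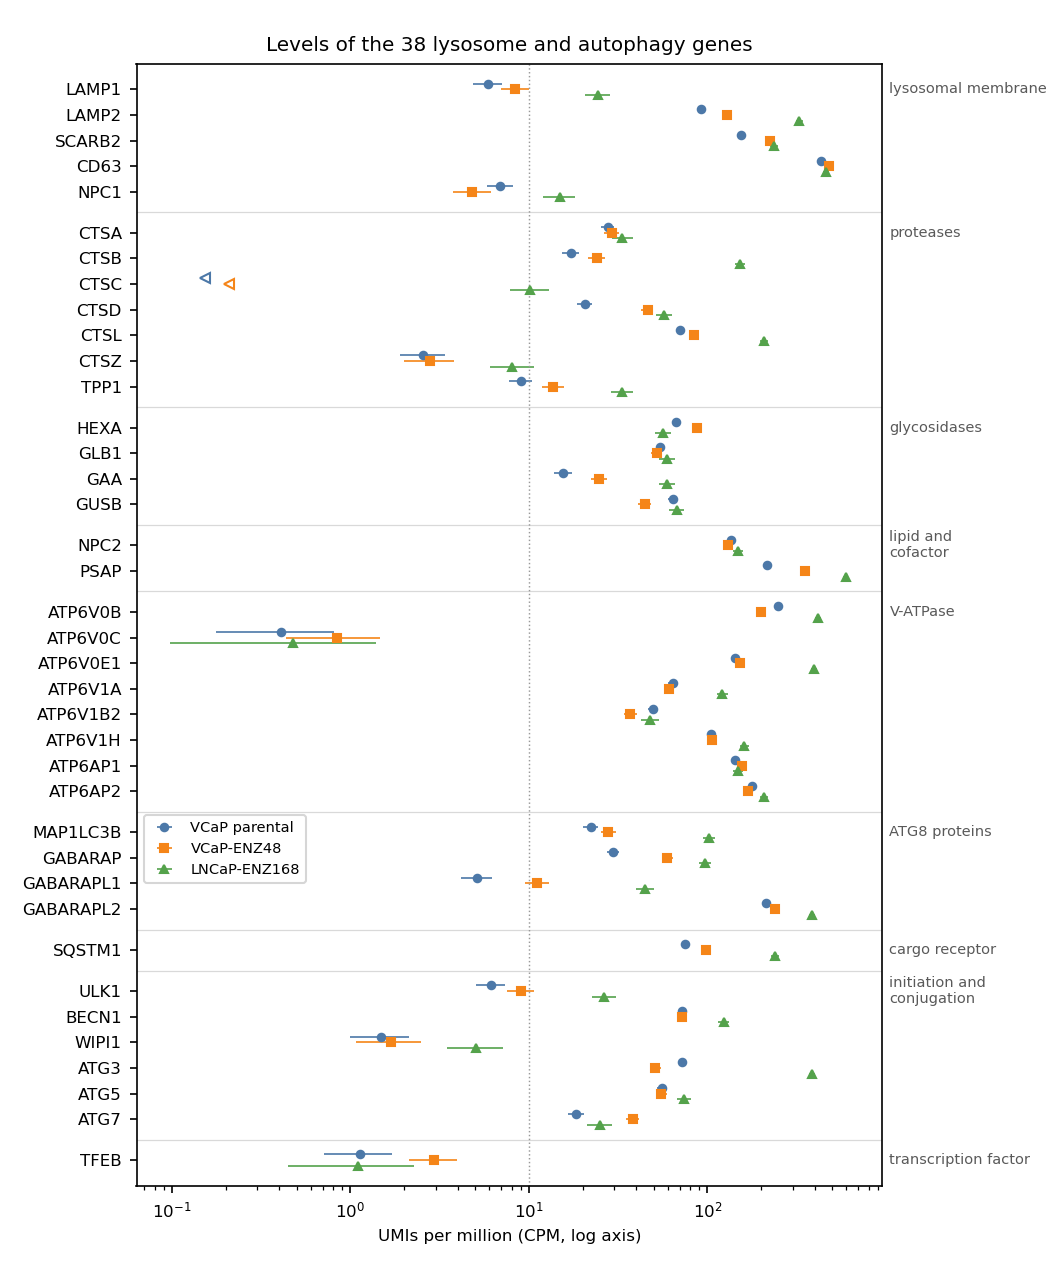
Level of each gene in each library, in CPM on a log axis, grouped by role, with exact Poisson 95% intervals. The dotted line marks 10 CPM, and open arrowheads place CTSC, with 0 UMIs in both VCaP libraries, at the limit that 0 counts allow. LNCaP-ENZ168 (triangles) lies to the right for CTSB at 153 CPM and ATG3 at 386 CPM.

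The first comparison asked how these genes differed in VCaP cells after a short exposure to ENZ. Each gene was given a relative log2 ratio, which is the log2 ratio of CPM + 1 minus the median of that ratio over all genes tested. The intervals of the ratios leave out the + 1. A gene counted as tested when it averaged 10 CPM or more over the pair. A gene below 10 CPM in 1 library could therefore be tested through its level in the other. A gene was called higher or lower when its relative ratio passed 1.5-fold and its counting interval left out 0. Across the 7729 genes tested, the median log2 ratio was -0.066.

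Of 29 lysosome and autophagy genes tested, 7 were called higher in VCaP-ENZ48 and 0 lower, while 17.5% of all genes tested were called higher and 15% lower. The 7 were the proteases CTSD and TPP1, the membrane protein SCARB2, the glycosidase GAA, the saposin precursor PSAP, the ATG8 protein GABARAP and the conjugation enzyme ATG7. They made up 24.1% of the 29 tested. Of them, TPP1 was below 10 CPM in VCaP parental and passed the minimum only through VCaP-ENZ48, where it was high. The median relative ratio of the 29 was 0.22, against 0 for all genes by construction, and the quartiles of all genes were -0.37 and 0.40. The ratio was above 0 for 24 of the genes and below 0 for 5. The counting interval lay above 0 for 17 genes and below 0 for 4.

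Without centring on the median of all genes, the sign of these ratios depended on the scaling. TMM factors shifted the median of all genes by -0.28 and median-of-ratios factors by -0.22. Without centring, 3 genes were called higher and 4 lower under TMM, with a median of -0.13, and 3 higher and 3 lower under median of ratios, with a median of -0.072. Of all 7729 genes tested, 773 were then higher and 2564 lower under TMM, with a median of -0.35. Under median of ratios 853 were higher and 2275 lower, with a median of -0.29. The median of the lysosome and autophagy genes thus stayed above that of all genes under both factors. Of the genes called higher in the main comparison, only CTSD, GABARAP and ATG7 kept the call under every alternative that tested them.

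**Figure D2:**
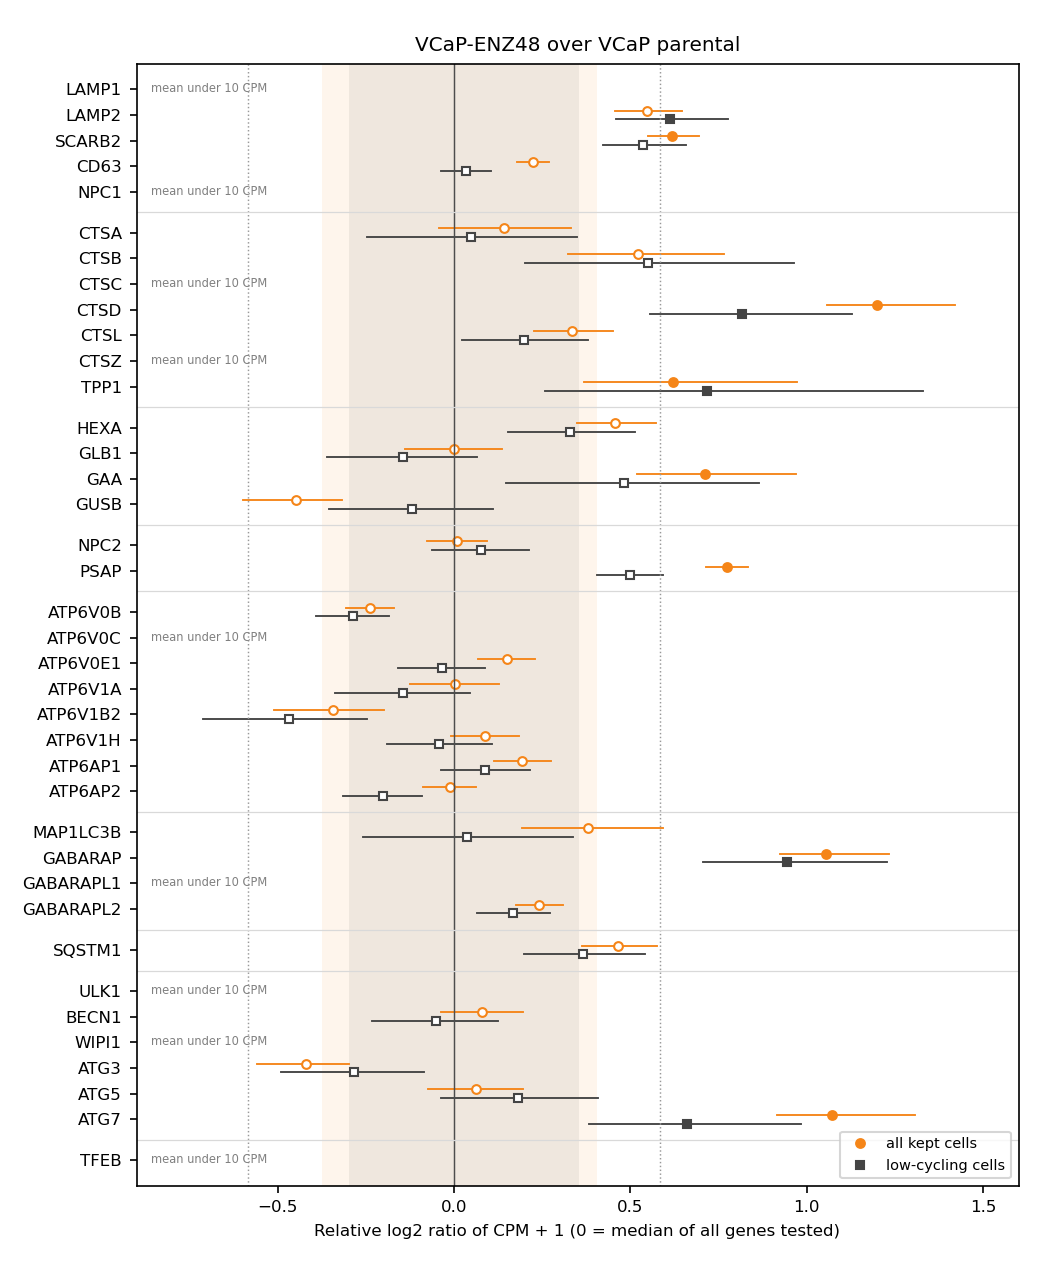
Relative log2 ratio of VCaP-ENZ48 over VCaP parental for each gene tested, in all kept cells (circles) and in low-cycling cells (squares), with counting intervals. Filled symbols were called, dotted lines mark 1.5-fold, and shaded bands span the quartiles of all genes tested. CTSD, GABARAP and ATG7 lie furthest right at 1.20, 1.05 and 1.07 in all cells, and the V-ATPase genes lie near 0.

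Among the 5 lysosomal membrane proteins, 1 was called. SCARB2, the receptor that carries glucocerebrosidase to the lysosome (chromosome 4, 76158737 to 76234536, GRCh38), was at 153 CPM in VCaP parental, 225 CPM in VCaP-ENZ48 and 237 CPM in LNCaP-ENZ168. Its relative ratio in the VCaP pair was 0.62 (0.55 to 0.69), just past the limit. The call was kept under 8 of 14 alternatives and lost under each uncentred scaling and in low-cycling cells, among others. LAMP2, which is also a receptor for chaperone-mediated autophagy, was at 92.4, 129 and 327 CPM in the same order, with a ratio of 0.55 (0.46 to 0.65) in the VCaP pair. The tetraspanin CD63 was at 431, 481 and 463 CPM, with a ratio of 0.22 (0.18 to 0.27). LAMP1 was at 5.89, 8.39 and 24.2 CPM, and NPC1, which exports cholesterol from the lysosome, at 6.92, 4.82 and 14.9 CPM. Both were below the minimum in the VCaP pair and were not tested there.

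The 7 proteases held the highest ratio of the whole set. CTSD encodes the aspartic protease cathepsin D (chromosome 11, 1752752 to 1764573). It was at 20.5 CPM (18.5 to 22.6, 400 UMIs) in VCaP parental, 46.1 CPM (42.7 to 49.8, 660 UMIs) in VCaP-ENZ48 and 57.0 CPM (51.3 to 63.2, 360 UMIs) in LNCaP-ENZ168. VCaP parental was thus the low library, and its interval did not overlap the other two. The relative ratio of the VCaP pair was 1.20 (1.06 to 1.42), and it stayed between 0.82 and 1.48 across the alternatives. TPP1, a tripeptidyl peptidase, was at 9.02, 13.7 and 33.3 CPM, and its ratio of 0.62 (0.37 to 0.97) rested on 176 and 196 UMIs. The TPP1 call was lost under 8 of 13 alternatives.

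The cysteine protease CTSB was at 17.2 CPM in VCaP parental and 23.9 CPM in VCaP-ENZ48, with a ratio of 0.52 (0.32 to 0.77). CTSL, another cysteine protease, was at 70.0 and 84.6 CPM, with a ratio of 0.34 (0.23 to 0.45). CTSA, which protects GLB1 and neuraminidase in a complex, was at 27.6 and 29.2 CPM, and its interval of -0.043 to 0.33 included 0. CTSZ was at 2.56 and 2.80 CPM. CTSC, which activates serine proteases of immune cells, had 0 UMIs in both VCaP libraries and 64 UMIs in LNCaP-ENZ168. CTSZ and CTSC were not tested in the VCaP pair.

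The 4 glycosidases went in different directions. GAA, the acid alpha-glucosidase that degrades glycogen (chromosome 17, 80101533 to 80119881), was at 15.5 CPM in VCaP parental, 24.8 CPM in VCaP-ENZ48 and 59.2 CPM in LNCaP-ENZ168. Its ratio in the VCaP pair was 0.71 (0.52 to 0.97), and the call was kept under 7 of 13 alternatives, not under TMM, median of ratios or in low-cycling cells. HEXA, a subunit of beta-hexosaminidase, was at 66.8 and 87.8 CPM in the VCaP pair, with a ratio of 0.46 (0.35 to 0.57). GLB1, the beta-galactosidase, was at 54.5 and 52.0 CPM, and its interval of -0.14 to 0.13 included 0. GUSB, the beta-glucuronidase, had the lowest ratio of the 29, at -0.45 (-0.60 to -0.32), with 63.8 CPM in VCaP parental and 44.4 CPM in VCaP-ENZ48.

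Both proteins that serve lipid breakdown were tested. PSAP, the precursor of the saposins that assist sphingolipid hydrolases (chromosome 10, 71816298 to 71851251), was at 214 CPM (208 to 221) in VCaP parental, 350.2 CPM (341 to 360.0) in VCaP-ENZ48 and 594 CPM (576 to 614) in LNCaP-ENZ168. The 3 intervals did not overlap, and the ratio of the VCaP pair was 0.77 (0.72 to 0.83). After centring, PSAP in LNCaP-ENZ168 over VCaP-ENZ48 was at 0.11 (0.047 to 0.17) and was not called. The PSAP call of the VCaP pair was lost under TMM, under median of ratios, in low-cycling cells and with a minimum of 1 CPM. NPC2, which hands cholesterol to NPC1, was at 136 and 130.5 CPM, with an interval of -0.078 to 0.094.

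No V-ATPase gene was called in the VCaP pair. Of 8 genes, 7 were tested, and their ratios lay between -0.34 and 0.19. The summed level of the 8 was 931 CPM (917 to 945) in VCaP parental and 883 CPM (867 to 898) in VCaP-ENZ48. ATP6V1B2, a subunit of the catalytic head, was lowest at -0.34 (-0.51 to -0.20), with 49.5 and 37.0 CPM. ATP6V0B, a ring subunit in the membrane, was at -0.24 (-0.30 to -0.17), with 248 and 201 CPM. ATP6V0E1, also in the membrane part, was at 143 and 152 CPM, and its ratio was 0.15 (0.068 to 0.23). The accessory protein ATP6AP1 was highest at 0.19 (0.11 to 0.28), with 143 and 157 CPM. For ATP6V1A, ATP6V1H and ATP6AP2 the interval included 0. The head subunit ATP6V1A was at 64.0 and 61.1 CPM, the regulatory subunit ATP6V1H at 104 and 106 CPM and the accessory protein ATP6AP2 at 178 and 169 CPM. Under TMM without centring all 7 were below 0, between -0.70 and -0.16.

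ATP6V0C, the main ring subunit, had 8 UMIs in VCaP parental, 12 in VCaP-ENZ48 and 3 in LNCaP-ENZ168, and was tested in none of the comparisons. In the Gencode annotation 76.3% of its exon bases are shared with other genes on the same strand. The shared portion was 35.4% for GABARAP, 27.3% for CTSD and 11.6% for TPP1, and below 6% for each of the other genes. How reads in shared exons were assigned could change these counts and was not tested.

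**Figure D3:**
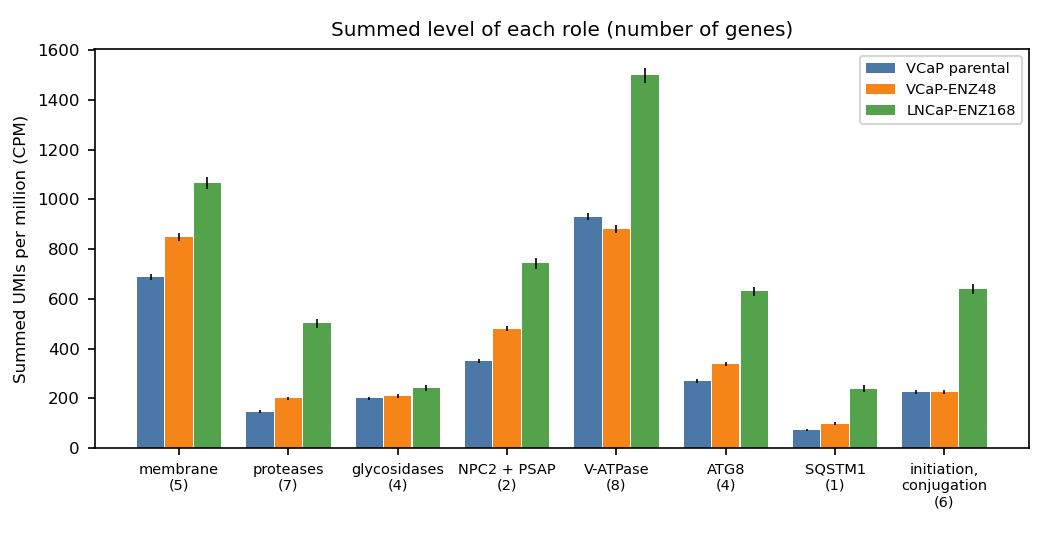
Summed CPM of the genes of each role in the 3 libraries, with exact binomial 95% intervals as black lines. The sums are not centred on the median of all genes. The number of genes is in brackets, and TFEB, at 2.94 CPM or less, is left out. The V-ATPase sum was 931 CPM in VCaP parental, 883 CPM in VCaP-ENZ48 and 1499.7 CPM in LNCaP-ENZ168.

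The ATG8 proteins are joined to lipid on the autophagosome membrane. GABARAP (chromosome 17, 7240008 to 7242449) was at 29.6 CPM (27.2 to 32.1, 578 UMIs) in VCaP parental, 59.7 CPM (55.8 to 63.9, 854 UMIs) in VCaP-ENZ48 and 96.6 CPM (89.1 to 105, 610 UMIs) in LNCaP-ENZ168. The 3 intervals did not overlap, and the ratio of the VCaP pair was 1.05 (0.92 to 1.23). After centring, GABARAP in LNCaP-ENZ168 over VCaP-ENZ48 was at 0.030 (-0.11 to 0.19) and was not called. The related gene GABARAPL1 was at 5.12, 11.1 and 44.7 CPM, in the same order of libraries, but its mean of the VCaP pair was below 10 CPM and it was not tested there. MAP1LC3B, the LC3 protein used as a marker of autophagosomes, was at 22.2, 27.9 and 102 CPM, with a ratio of 0.38 (0.19 to 0.59). GABARAPL2 was at 212, 239.8 and 387 CPM, with a ratio of 0.24 (0.18 to 0.31). The cargo receptor SQSTM1, or p62, was at 74.6, 98.6 and 239.8 CPM, with a ratio of 0.46 (0.36 to 0.58).

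Of the 6 genes of initiation and conjugation, 4 were tested in the VCaP pair and 1 was called. ATG7 is the E1-like enzyme that activates ATG8 proteins and ATG12 (chromosome 3, 11272309 to 11557665). It was at 18.4 CPM (16.6 to 20.4, 360 UMIs) in VCaP parental, 38.04 CPM (34.9 to 41.4, 544 UMIs) in VCaP-ENZ48 and 24.9 CPM (21.1 to 29.1, 157 UMIs) in LNCaP-ENZ168. VCaP-ENZ48 was the high library, and the ratio was 1.07 (0.92 to 1.31). ATG3, the E2-like enzyme that acts after ATG7, had a ratio of -0.42 (-0.56 to -0.30), with 72.0 CPM in VCaP parental and 51.1 CPM in VCaP-ENZ48. The 2 enzymes of this step thus lay on opposite sides of 0, though ATG3 was not called. ATG5, which joins ATG12 in the E3-like complex, was at 55.4 and 55.2 CPM, and BECN1, of the lipid kinase complex, at 71.8 and 72.4 CPM. The ratios of ATG5 (-0.073 to 0.19) and BECN1 (-0.038 to 0.20) had intervals that included 0.

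The kinase ULK1, which starts autophagy, was at 6.10 and 9.02 CPM in the VCaP pair, and WIPI1, which binds the lipid signal at the forming membrane, at 1.49 and 1.68 CPM. TFEB had 22 UMIs in VCaP parental, 42 in VCaP-ENZ48 and 7 in LNCaP-ENZ168. These were 1.13 CPM (0.71 to 1.71), 2.94 CPM (2.12 to 3.97) and 1.11 CPM (0.45 to 2.28), so the VCaP intervals did not overlap, but all were far below the minimum. The 9 genes not tested in the VCaP pair were LAMP1, NPC1, CTSC, CTSZ, ATP6V0C, GABARAPL1, ULK1, WIPI1 and TFEB.

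Of the 21 tested genes with a promoter, 6 had CACGTG and 15 did not. Among the 6, 2 were called higher, CTSD and GAA, and the median relative ratio was 0.18. Among the 15, 4 were called higher and the median was 0.24. The ranges were -0.42 to 1.20 and -0.45 to 1.07. Of all genes tested in this pair, 17.5% were called higher, and both groups here are small.

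The share of S and G2M UMIs was lower in VCaP-ENZ48 than in VCaP parental, so the pair was also compared within low-cycling cells. These were cells whose share of UMIs in S and G2M genes was at most 0.381%, the lowest quartile of VCaP parental. There were 250 in VCaP parental and 860 in VCaP-ENZ48. In these cells 29 of the genes were tested, 5 were called higher and 0 lower, with a median of 0.088. All genes gave 15.4% higher and 9.09% lower. The 5 were LAMP2, CTSD, TPP1, GABARAP and ATG7. TPP1 again passed the minimum only through VCaP-ENZ48. LAMP2 was called in the low-cycling cells at 0.61 (0.46 to 0.78), and SCARB2, GAA and PSAP were no longer called.

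The ratio was smaller in low-cycling cells for 22 of the 29 genes and larger for 7. For CTSD the low-cycling cells of VCaP parental were at 27.7 CPM and those of VCaP-ENZ48 at 47.0 CPM, with a ratio of 0.82 (0.56 to 1.13). GABARAP was at 33.2 and 61.2 CPM, with 0.94 (0.71 to 1.23), and ATG7 at 25.9 and 39.3 CPM, with 0.66 (0.38 to 0.98). For MAP1LC3B the levels were 29.1 and 28.3 CPM, and the interval of -0.26 to 0.34 included 0. For GUSB they were 48.5 and 42.2 CPM, and the interval of -0.35 to 0.11 included 0.

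The same genes were then compared inside VCaP parental, between the 250 cells with the highest and the 250 with the lowest share of S and G2M UMIs. Of 28 genes tested, 1 was called higher in the high-cycling cells and 4 lower, against 12.4% and 7.92% of all genes. The median was -0.23, with 22 genes below 0 and 6 above. The 4 lower were CTSD at -0.88 (-1.36 to -0.50), MAP1LC3B at -0.73 (-1.17 to -0.36), GAA at -0.68 (-1.24 to -0.23) and ATG7 at -0.64 (-1.09 to -0.25). The gene called higher was GUSB at 0.77 (0.54 to 1.02), with 81.6 CPM in high-cycling and 48.5 CPM in low-cycling cells. CTSD was at 14.3 and 27.7 CPM. GABARAP, at 29.0 and 33.2 CPM, had an interval of -0.50 to 0.17. These cells shared 1 library and 1 treatment. With larger groups, taken as the lowest and highest 33.3% of cells, 2 genes were called lower.

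LNCaP-ENZ168 was compared with VCaP-ENZ48, the other library in ENZ, and with VCaP parental. Both ratios share the LNCaP library. Over VCaP-ENZ48, 32 of the genes were tested, 10 were called higher and 4 lower, and the median was 0.069. All genes tested gave 26.8% higher and 28.1% lower. Over VCaP parental, 33 were tested, 15 were called higher and 2 lower, and the median was 0.34. The background there was 28.4% higher and 30.2% lower.

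The centring mattered most here, since the median log2 ratio of all genes was 0.65 over VCaP-ENZ48 and 0.57 over VCaP parental. With CPM and no centring, 20 genes were called higher and 2 lower over VCaP-ENZ48, and 22 higher and 0 lower over VCaP parental. Of all genes tested, 4700 of 8854 were then higher and 1326 lower over VCaP-ENZ48. Over VCaP parental, 4218 of 8526 were higher and 1411 lower. TMM shifted the median of all genes by -0.52 and -0.79 in these comparisons. It gave 12 higher and 3 lower over VCaP-ENZ48, and 15 higher and 8 lower over VCaP parental. Under TMM all genes gave 2793 higher and 2147 lower of 8854 over VCaP-ENZ48, and 1900 higher and 3188 lower of 8526 over VCaP parental.

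**Figure D4:**
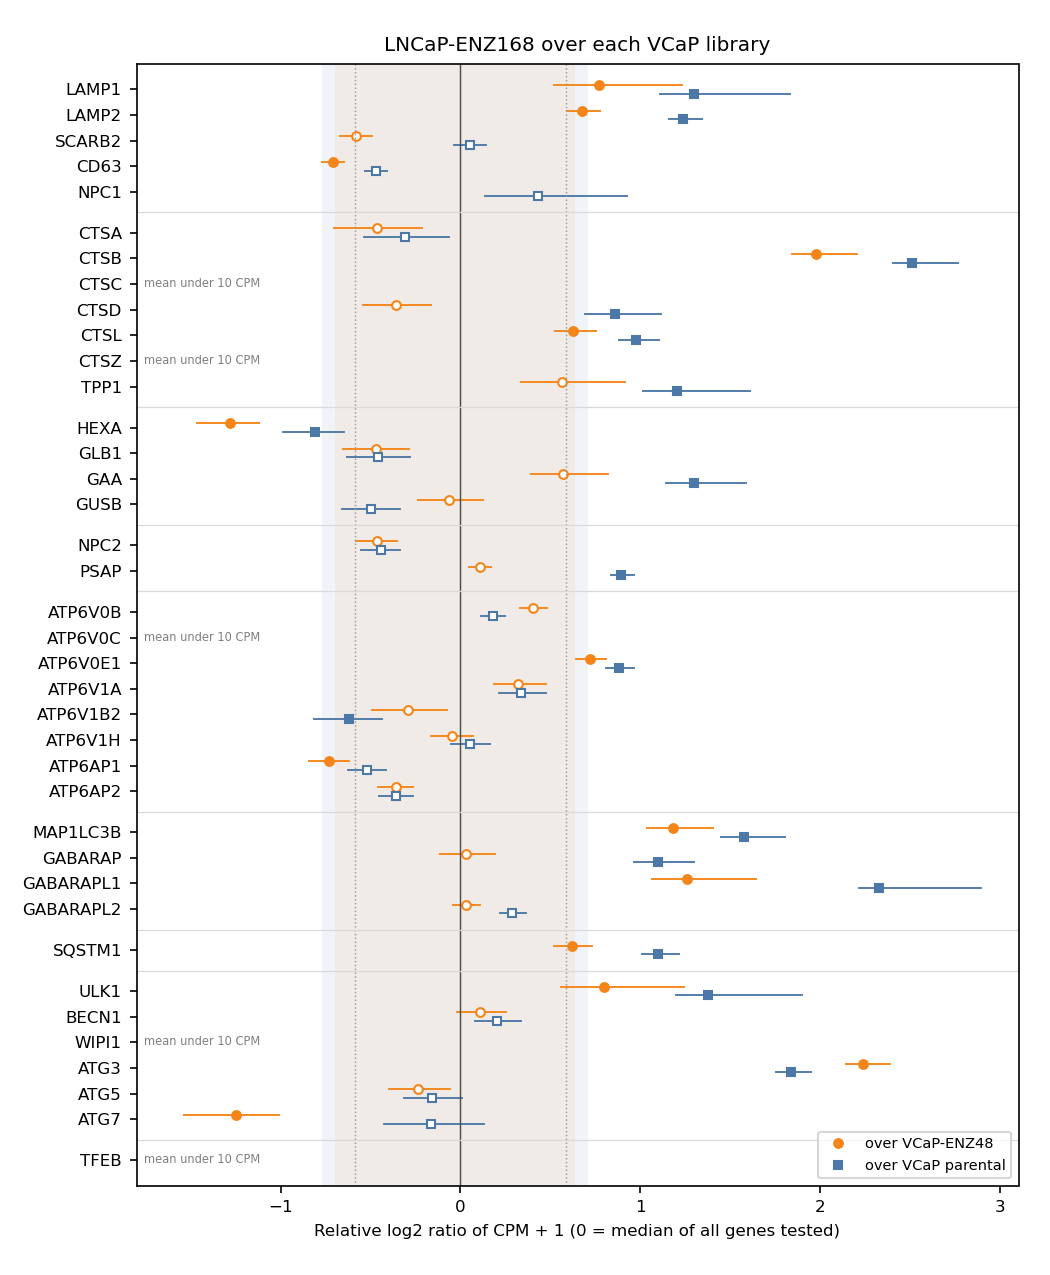
Relative log2 ratio for each gene tested, with LNCaP-ENZ168 set over VCaP-ENZ48 (circles) and over VCaP parental (squares), with counting intervals. Filled symbols were called, dotted lines mark 1.5-fold, and shaded bands span the quartiles of all genes tested. CTSB, at 1.97 and 2.51, and ATG3, at 2.24 and 1.83, lie far to the right in both, and HEXA, at -1.28 and -0.81, to the left.

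Against both VCaP libraries 10 of the 32 genes tested in both were called higher, namely LAMP1, LAMP2, CTSB, CTSL, ATP6V0E1, MAP1LC3B, GABARAPL1, SQSTM1, ULK1 and ATG3. HEXA was called lower against both. LAMP1 and ULK1 were below 10 CPM in both VCaP libraries and passed the minimum only through LNCaP-ENZ168, where they were high. GABARAPL1, at 5.12 CPM in VCaP parental, did so in that comparison. Over VCaP-ENZ48 the LAMP1 and ULK1 calls were lost with a pseudocount of 5, those of CTSL and SQSTM1 without the deepest barcodes, that of CTSL also with cells weighted equally and that of SQSTM1 also with barcodes ending in a base. Of 8346 genes tested in both, 1769 were higher and 1686 lower in both. Among proteases, CTSB was at 153 CPM (143 to 163, 966 UMIs) in LNCaP-ENZ168 and at no more than 23.9 CPM in a VCaP library, with ratios of 1.97 (1.84 to 2.21) over VCaP-ENZ48 and 2.51 (2.40 to 2.77) over VCaP parental. CTSL was at 207 CPM, with ratios of 0.63 (0.52 to 0.75) and 0.98 (0.88 to 1.10). CTSC was at 10.1 CPM in LNCaP-ENZ168. This was at least 48.3-fold higher than VCaP-ENZ48 and at least 65.9-fold higher than VCaP parental, each with the VCaP library set to 3 counts.

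Among autophagy genes, ATG3 had the highest ratio of the 32 genes tested over VCaP-ENZ48. It was at 386 CPM (371 to 402) in LNCaP-ENZ168, and its ratios were 2.24 (2.14 to 2.38) over VCaP-ENZ48 and 1.83 (1.76 to 1.95) over VCaP parental. ATG7 was lower than in VCaP-ENZ48, at -1.25 (-1.53 to -1.01), but was not called against VCaP parental, at -0.16 (-0.42 to 0.13). GABARAPL1 was at 44.7 CPM, with ratios of 1.26 (1.07 to 1.64) and 2.32 (2.22 to 2.89), and MAP1LC3B had 1.18 (1.03 to 1.40) and 1.58 (1.45 to 1.81). ULK1 was at 26.5 CPM, with 0.80 (0.56 to 1.24) and 1.38 (1.20 to 1.90), and SQSTM1 had 0.62 (0.52 to 0.73) and 1.10 (1.007 to 1.22). GABARAP was called over VCaP parental, at 1.10 (0.97 to 1.30), but its interval over VCaP-ENZ48 was -0.11 to 0.19 and included 0. BECN1 was at 124 CPM and ATG5 at 74.3 CPM in LNCaP-ENZ168, and neither was called. WIPI1, at 5.07 CPM there, was below the minimum in both comparisons and was not tested.

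Of the V-ATPase genes, ATP6V0E1 was called higher against both VCaP libraries. It was at 395 CPM in LNCaP-ENZ168, with ratios of 0.72 (0.64 to 0.81) and 0.88 (0.81 to 0.97). ATP6AP1, at 149 CPM, was called lower over VCaP-ENZ48 at -0.73 (-0.84 to -0.62), and ATP6V1B2, at 47.8 CPM, lower over VCaP parental at -0.62 (-0.81 to -0.43). Both calls were lost with CPM and no centring. The rest were at 418 CPM for ATP6V0B, 121 CPM for ATP6V1A, 161 CPM for ATP6V1H and 207 CPM for ATP6AP2, and were not called.

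LAMP1 was at 24.2 CPM in LNCaP-ENZ168, with ratios of 0.77 (0.52 to 1.23) and 1.30 (1.11 to 1.83), and LAMP2 at 327 CPM, with 0.68 (0.59 to 0.77) and 1.24 (1.16 to 1.34). CD63 was called lower over VCaP-ENZ48 at -0.71 (-0.77 to -0.64) although the CPM were 463 and 481. This CD63 call was lost under 5 of 14 alternatives, each uncentred scaling among them, with a ratio as near to 0 as -0.053. HEXA was at 56.5 CPM, and its ratios were -1.28 (-1.46 to -1.12) and -0.81 (-0.99 to -0.65). The second HEXA call was lost with CPM and no centring, at -0.24. CTSD, TPP1, GAA and PSAP were called higher over VCaP parental, at 0.86, 1.20, 1.30 and 0.89, but not over VCaP-ENZ48. TPP1 passed the minimum over VCaP parental only through LNCaP-ENZ168. GLB1, GUSB and NPC2 were at 59.2, 67.3 and 149 CPM in LNCaP-ENZ168 and CTSA at 33.4 CPM, and none of them was called in either comparison. CTSZ, at 8.08 CPM, was not tested.

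Other genes of the pathway were taken from lists of 133 genes, of which 131 had a row in the files. In the VCaP pair 72 were tested, 16 were called higher and 1 lower, with a median of 0.15, beside 17.5% higher and 15% lower of all genes. The other lysosomal hydrolases had 6 higher and 1 lower of 19, with a median of 0.42. The other V-ATPase subunits had 2 higher of 8, the sorting proteins 2 of 5, the other autophagy genes 3 of 18, the other cargo receptors 2 of 6 and the other lysosomal membrane proteins 1 of 5. None of the 11 genes of nutrient sensing at the lysosome was called. Of the TFEB relatives, MITF and TFE3 were below the minimum. Of the 72 tested, the highest ratio was that of CTSH, an aminopeptidase of the cathepsin family, from 47.9 to 222 CPM at 2.25 (2.17 to 2.38). The cysteine protease CTSF was next, from 7.69 to 35.8 CPM at 2.15 (2.02 to 2.56), and passed the minimum only through VCaP-ENZ48. The lowest of the 72 were GGH, which removes glutamate from folates, from 133 to 42.9 CPM at -1.54 (-1.69 to -1.44), and the mitophagy receptor FUNDC1, from 67.6 to 46.6 CPM at -0.46 (-0.61 to -0.33), which was not called. The lists gave 24 higher and 19 lower of 91 for LNCaP-ENZ168 over VCaP-ENZ48, beside 26.8% and 28.1% of all genes. Over VCaP parental they gave 36 higher and 11 lower of 89, beside 28.4% and 30.2%.

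The sum was also followed from cell to cell. Each cell was thinned to 2000 UMIs, which left out 1 cell of LNCaP-ENZ168 and 30 of VCaP-ENZ48. The median cell then had 11 UMIs of the 38 genes in LNCaP-ENZ168, 6 in VCaP parental and 7 in VCaP-ENZ48. These were 0.55%, 0.3% and 0.35% of the thinned UMIs, and 0.555%, 0.285% and 0.322% without thinning. Like the sums, these shares are not centred on the median of all genes. The central 90% of cells lay between 0.25% and 0.95% in LNCaP-ENZ168, between 0.1% and 0.55% in VCaP parental and between 0.1% and 0.65% in VCaP-ENZ48. The distributions of the VCaP libraries thus overlapped over most of their range. With another random seed the medians of the VCaP libraries were 5 and 6 UMIs.

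**Figure D5:**
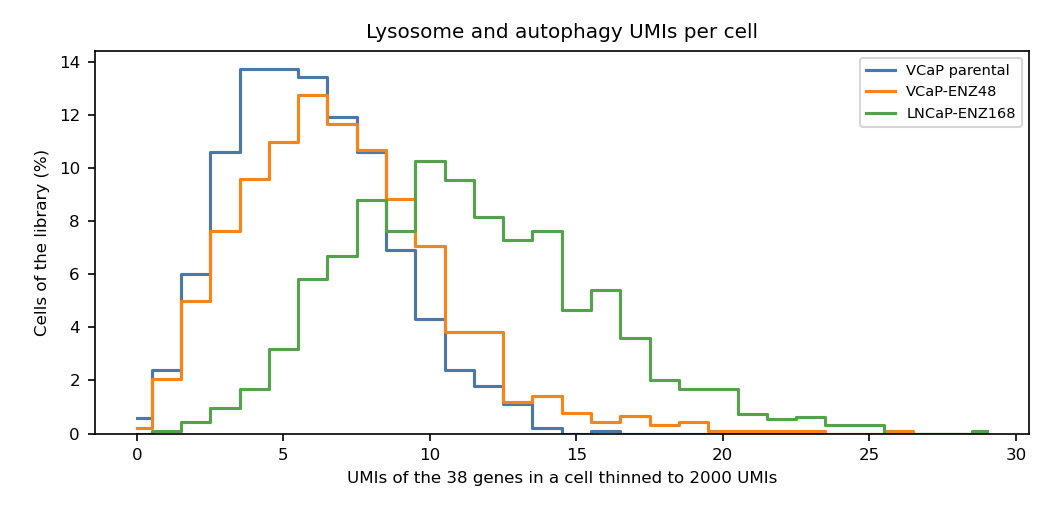
Share of cells of each library by the number of UMIs of the 38 genes in a cell thinned to 2000 UMIs. The medians were 6 UMIs in VCaP parental, 7 in VCaP-ENZ48 and 11 in LNCaP-ENZ168.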

How the data were processed

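The authors made the deposited files with the Drop-seq tools, STAR and Picard, on GRCh38 and Gencode, at default settings and with 1000 cells expected. These deposited files hold raw counts of UMIs for each gene and barcode. Genes missing from a file were counted as 0. Coordinates and exon overlaps are from Gencode 44 on GRCh38, a later release than the authors used, and promoters from RefSeq (GRCh38.p14).

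A barcode was kept as a cell if it had 300 genes and 500 UMIs or more, with no more than 25% of UMIs mitochondrial. No doublet caller was run, and 1 alternative dropped barcodes deeper than 3 times the median, which may include doublets. UMIs were summed over cells and scaled to CPM. Ratios used CPM + 1, a mean of at least 10 CPM and a 1.5-fold limit. Levels of single genes carry exact Poisson, summed levels exact binomial and ratios exact conditional 95% intervals. With 1 library per group no test was made. Cells were ranked by their UMIs in the 97 S and G2M genes of Seurat. TMM factors came from edgeR, and median-of-ratios factors were computed directly. In all, 14 alternatives were tried. Calls and intervals were checked on simulated counts in which 200 genes differed 4-fold. Those counts held counting error only, so the check does not cover calls near the 1.5-fold limit or variation between libraries. The 38 genes and the pathway lists were chosen with earlier results of these data known. All 38 are named, with the 2 highest and 2 lowest pathway genes of the VCaP pair. Versions were R 4.3.3, edgeR 4.0.16, Seurat 5.3.0, Python 3.11.15, scipy 1.17.1, numpy 2.4.6, matplotlib 3.10.9 and pandas 2.3.3.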

Additional observations from a re-analysis of the deposited data

How the results depend on the processing

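For VCaP-ENZ48 over VCaP parental, the median relative log2 ratio was 0.22. The uncentred median was -0.13 under TMM and -0.072 under median of ratios, where 3 genes were higher and 4 and 3 lower. The median of all genes tested was then -0.35 and -0.29, so the lysosome and autophagy genes stayed above it. The median of the lysosome and autophagy genes was 0.18 with at most 15% mitochondrial UMIs, 0.088 in low-cycling cells, 0.16 with CPM and no centring, 0.0012 with a minimum of 1 CPM (3 lower) and 0.078 with no minimum (1 lower). Barcodes ending in a base gave 1 lower.

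For LNCaP-ENZ168 over VCaP-ENZ48, the median of 0.069 was 0.23 with barcodes ending in a base, 0.72 with CPM and no centring (20 higher, 2 lower), 0.20 under TMM, 0.23 under median of ratios (2 lower), 0.27 with a minimum of 1 CPM (16 higher) and 0.71 with no minimum (22 higher). Over VCaP parental, the median of 0.34 was 0.91 with CPM and no centring (0 lower), 0.097 under TMM (8 lower), 0.19 under median of ratios (7 lower), 0.51 with a minimum of 50 CPM (0 lower) and 0.78 with no minimum (0 lower), and there were 4 lower in low-cycling cells and 1 with a pseudocount of 5. The calls over all genes changed with the setting as well, to 4700 higher and 1326 lower of 8854 over VCaP-ENZ48 with CPM and no centring. Groups of 33.3% of VCaP parental cells in place of 25% gave 2 lower. The remaining 100 summary values were within their limits. Of the values of single genes, 448 moved by more than their counting error, 840 did not and 0 called ratios changed sign. The cause of these shifts was not tested beyond each setting itself.

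No paired analysis was possible because there was a single library in every group. Genes at few UMIs, such as ATP6V0C, WIPI1 and TFEB, were limited by depth.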

Other observations

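Among the pathway genes tested against both VCaP libraries, 24 of 88 were called higher in LNCaP-ENZ168 against both and 9 lower, beside 1769 higher and 1686 lower of all 8346 genes tested in both. The genes below were picked from them after their values were seen. The mitophagy receptor BNIP3L had 2142 UMIs (339 CPM) in LNCaP-ENZ168, 1 UMI in VCaP parental and 4 in VCaP-ENZ48. The SNARE protein VAMP8, which acts in the fusion of autophagosomes with lysosomes, was at 136 CPM in LNCaP-ENZ168, 0.512 CPM in VCaP parental and 1.26 CPM in VCaP-ENZ48. FUNDC1, another mitophagy receptor, went the other way, with 0 UMIs in LNCaP-ENZ168 against 67.6 CPM in VCaP parental and 46.6 CPM in VCaP-ENZ48, at least 142-fold and 98.1-fold lower with LNCaP-ENZ168 set to 3 counts. BNIP3L, VAMP8 and FUNDC1 passed the minimum only through the library of each pair where they were high. BNIP3, a close relative of BNIP3L, was at 326 CPM in LNCaP-ENZ168, 326 CPM in VCaP parental and 235 CPM in VCaP-ENZ48 and was called in neither comparison.

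In the VCaP pair, further genes were picked in the same way. The sorting receptor SORL1 was at 8.56 CPM in VCaP parental and 37.2 CPM in VCaP-ENZ48, a relative log2 ratio of 2.07 (1.93 to 2.45). The ATG8 gene MAP1LC3A was at 4.77 and 20.8 CPM, a ratio of 1.98 (1.85 to 2.54). Both genes were below 10 CPM in VCaP parental and passed the minimum only through VCaP-ENZ48. TFEB relatives were scarce in VCaP, with TFE3 at 1.08 and 1.82 CPM and MITF at 2.25 and 1.40 CPM, against 12.0 and 10.6 CPM in LNCaP-ENZ168.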
